A study of Homo sapiens with 10 samples.

Results

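The genes described here are 10 neural immunoglobulin adhesion molecules: NCAM1, the contactins CNTN1, CNTN2 and CNTN5, the synaptic cell adhesion molecules CADM1 and CADM3, neurofascin (NFASC), MCAM, and the IgLON proteins NTM and OPCML. They were found by symbol, as every row of the deposited value table whose one listed gene was a member, which gave 203 rows for the 10 genes out of 56949 rows with a listed gene and 4713 genes in all. A row is taken to be a probe set that covers part of a gene, and the members had between 9 rows (OPCML) and 36 rows (NFASC). No row listed a member together with another gene. Per a RefSeq gene table, NCAM1, CNTN5, CADM1, MCAM, NTM and OPCML lie on chromosome 11, CNTN2, CADM3 and NFASC on chromosome 1 and CNTN1 on chromosome 12.

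These proteins carry immunoglobulin domains outside the cell and hold neighbouring cells together by binding copies of themselves or partner molecules. Several of them, the contactins and the IgLON proteins among them, are fixed to the membrane by a lipid anchor, while CADM1, NFASC and MCAM cross it, and NCAM1 is made in both forms. They are best known from the nervous system, where they guide axons and organise synapses and myelinated fibres. NCAM1, CADM1 and MCAM are also made by cells outside it and by some tumours. CADM1 is known as a tumour suppressor that is silenced in several carcinomas.

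The study profiled the human colon cancer line SW620, which was established from a lymph node metastasis of a colon adenocarcinoma, in 3 groups. Liver metastasis derivatives (3 arrays) and lung metastasis derivatives (3 arrays) are SW620 cells recovered from metastases that had formed in nude balb/c mice, then expanded in culture, and parental SW620 cells (4 arrays) are the line they came from. The labels give the strain balb/c for all 3 groups, name no treatment and describe 1 culture medium for all. Nude mice lack a thymus and so mature T cells but keep natural killer cells, so the derivatives had passed through a host with part of its immunity. All arrays are labelled as biological replicates, but nothing says whether the 3 arrays of a derivative come from separate metastases or from 1 derived culture, so the p-values below measure the spread between these samples and may be technical in part.

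Values are log2 expression after robust multi-array averaging, between 2.55 and 13.99 over the table, with array medians from 8.52 to 8.60. A difference of 1 is a 2-fold change. Levels of different probe sets were compared only to pick the brightest row of a gene and to mark dim rows. Of 15 colon epithelium genes 12 were measured, and the keratins KRT8 and KRT18 had group means of 12.77 and 11.73 in liver derivatives, 12.82 and 11.61 in lung derivatives, and 12.75 and 11.62 in parental cells. Other genes of this list were lower in the derivatives, as given below. The mean level of the 12 ran from 8.81 to 8.85 in liver arrays, 8.81 to 8.86 in lung arrays and 9.10 to 9.12 in parental arrays. Parental array 4 stood apart from the other parental arrays. Across rows, which are not independent replicates, its Pearson correlation was 0.966 to 0.967 with the lung arrays and 0.968 to 0.970 with parental arrays 1 to 3, which correlated at 0.987 to 0.989 among themselves. Results that rest on it are given also from a fit with an array-set term. In it parental array 4 and the lung arrays form 1 set and the other 6 arrays the other. The labels name no such set: the grouping was drawn from the values of these same arrays, and whether it is a real set was not tested. With that term the lung derivatives are set against parental array 4 alone and the liver derivatives against parental arrays 1 to 3, and the lone parental array is assumed to vary like the other arrays.

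In liver derivatives NCAM1 and CNTN1 held most of the called member rows. NCAM1, the neural cell adhesion molecule CD56, fell in both derivatives, and CNTN1, contactin 1, rose by far more in liver than in lung derivatives. CADM1 rose moderately in liver derivatives. MCAM fell and CNTN5 rose by a small amount in lung derivatives, and neither passed the test against parental array 4. By the average over the rows of a gene (row average below), the 5 members CNTN2, CADM3, NFASC, NTM and OPCML passed the test in none of the comparisons.

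**Figure D1:**
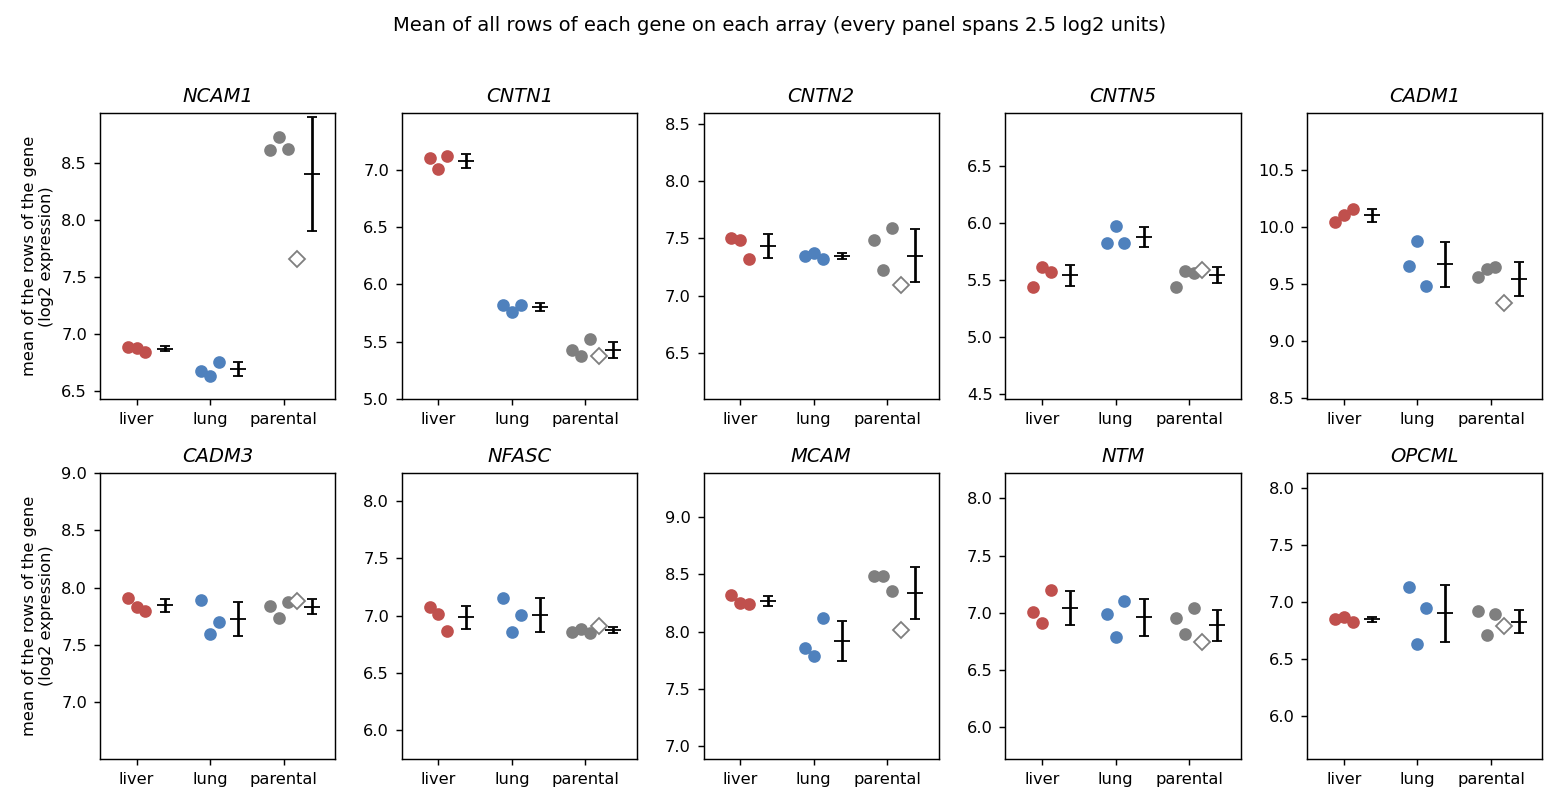
Row average of each gene on each array (vertical axis, log2 expression, a span of 2.5 log2 units in every panel), for liver derivatives (red), lung derivatives (blue) and parental cells (grey), with parental array 4 as an open diamond. Black marks are group means with SD. NCAM1 lies at 6.64 to 6.89 in all 6 derivative arrays and at 7.65 to 8.72 in parental arrays, and CNTN1 is highest in the liver arrays.

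Liver derivatives were first compared with parental cells, to ask which adhesion molecules differed after growth in the liver. Each row was tested with limma over all 10 arrays with Benjamini-Hochberg adjustment over 56949 rows, and called at an adjusted p under 0.05. Of the 203 member rows 25 were called, 13 higher and 12 lower, which is 12.3%, against 2.2% of all rows (1.15% higher and 1.04% lower). NCAM1 and CNTN1 held 23 of the 25, and CADM1 the other 2. Of the 153 rows of the 8 members other than NCAM1 and CNTN1, 1.31% were called, near the share in the whole table. By the row average, 3 of the 10 genes were called, 2 higher and 1 lower, against 7.83% of all genes.

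NCAM1 mediates adhesion between like cells, is the CD56 antigen of natural killer cells and is a marker of neural and neuroendocrine cells. The mean of its 24 rows was 6.89, 6.88 and 6.85 in the liver arrays, against 8.61, 8.72, 8.62 and 7.65 in the parental arrays. Every liver array lay below every parental array, and parental array 4 lay between the liver arrays and the other parental arrays. The difference was -1.53 (SE 0.21, limma adjusted p = 6.99e-04), a 2.88-fold fall (6.87 ± 0.02 against 8.40 ± 0.50, SD, n = 3 and 4). It ranked 20 among 4713 genes by the size of the change. Against parental arrays 1 to 3, once the array set was modelled, it was -1.78 (SE 0.06), and against the single parental array 4 the liver mean was 0.78 lower (difference -0.78).

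The fall of NCAM1 ran through most of the gene. In liver derivatives 22 of its 24 rows had a lower mean than in parental cells. In 16 of them all liver arrays lay below all parental arrays, against 7.56% of all rows, and 12 were called, with changes from -3.02 to -1.43. The largest was in row 3, counted in order of probe set ID, which held 5.49, 5.75 and 5.96 in the liver arrays, against 8.91, 9.22, 9.05 and 7.82 in the parental arrays. In this row the liver and parental arrays did not overlap, and the fall was 8.10-fold (log2 change -3.02, SE 0.60, adjusted p = 0.0364). The brightest row, row 19, moved less: it held 9.32, 9.25 and 8.91 in liver arrays, against 9.99, 10.09, 10.10 and 9.51 in parental arrays, and was not called (-0.76, SE 0.19, adjusted p = 0.0975). Rows 1, 2, 9, 15, 16 and 18 also moved by less than 1 log2 unit in both derivatives.

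**Figure D2:**
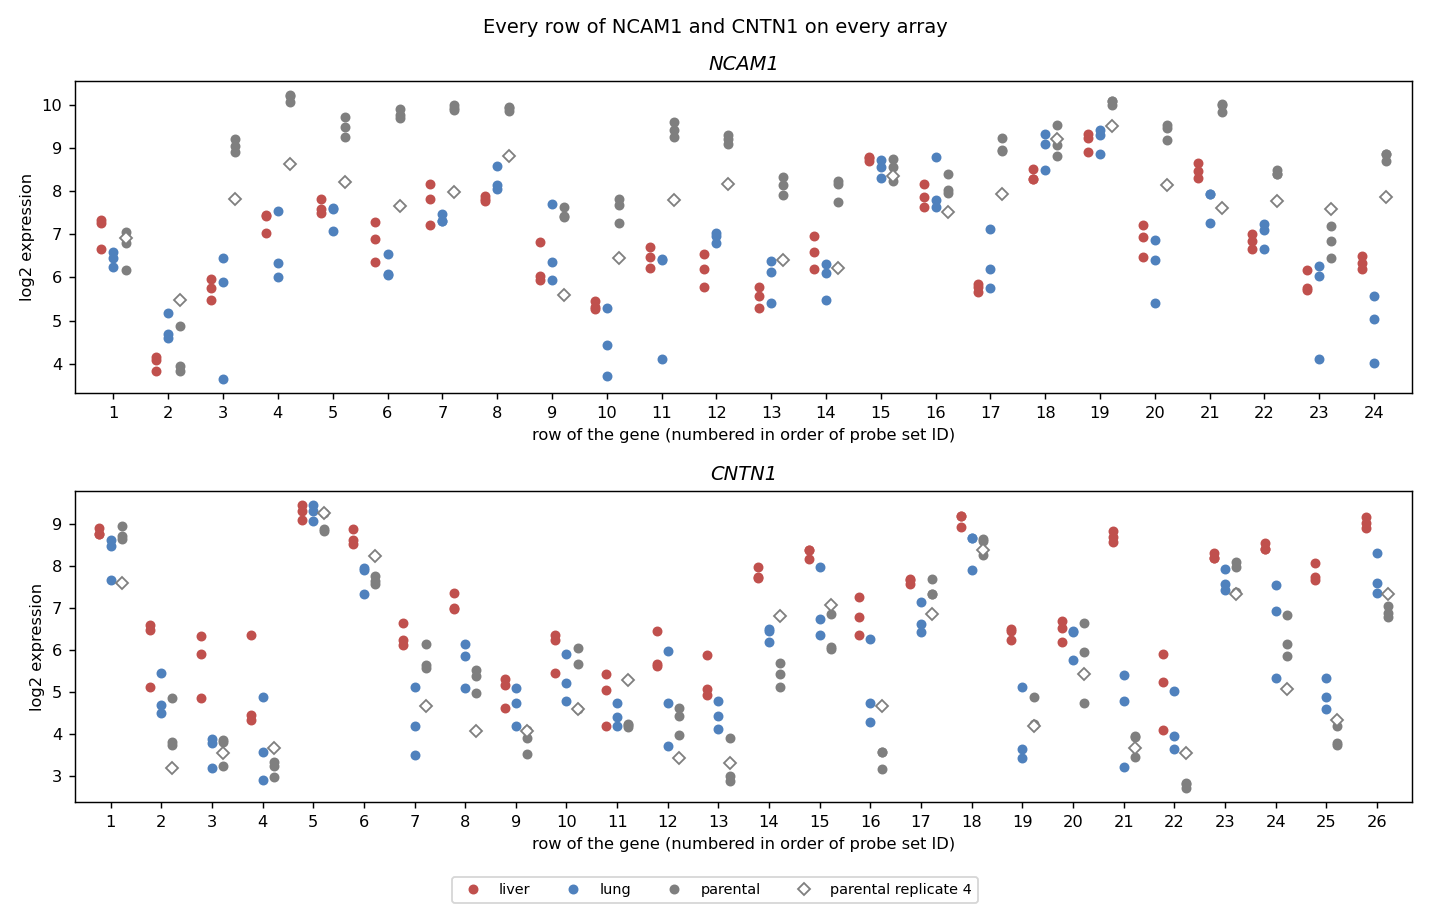
Every row of NCAM1 (top) and CNTN1 (bottom) on every array, in log2 expression, with rows numbered in order of probe set ID along the horizontal axis. Liver arrays are red, lung arrays blue and parental arrays grey, with parental array 4 as an open diamond. In NCAM1 the derivative arrays lie below parental arrays 1 to 3 in most rows and parental array 4 often lies between, while in CNTN1 the liver arrays stand alone above the rest in rows such as 21 and 25.

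Contactin 1 is a lipid-anchored protein of axons and of the junctions that flank the nodes of Ranvier, and can also act as a ligand of Notch receptors. The mean of the 26 CNTN1 rows was 7.11, 7.01 and 7.12 in the liver arrays, against 5.42, 5.38, 5.52 and 5.37 in the parental arrays. The groups did not overlap, and all 4 parental arrays lay close together. The difference was 1.65 (SE 0.06, adjusted p = 4.69e-08), a 3.15-fold rise, which ranked 15 among 4713 genes by size (7.08 ± 0.06 against 5.42 ± 0.07, SD, n = 3 and 4). Once the array set was modelled it was 1.64 (SE 0.06).

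All 26 rows of CNTN1 had a higher mean in liver derivatives than in parental cells. In 19 of them all liver arrays lay above all parental arrays, against 8.59% of all rows, and 11 were called, with changes from 2.01 to 4.94. Row 21 held 8.69, 8.82 and 8.57 in the liver arrays, against 3.94, 3.96, 3.46 and 3.68 in the parental arrays. That is a 30.6-fold difference (4.94, SE 0.42, adjusted p = 4.64e-04) from a parental level among the dimmest values of the table. Row 25 had the smallest adjusted p, at 8.07, 7.68 and 7.73 in liver arrays, against 3.75, 3.79, 4.20 and 4.34 in parental arrays (3.81, SE 0.21, adjusted p = 4.94e-05). Signal sets a limit here: 13 of the 26 rows had a group mean above 6.81, the 25th percentile of all values. Of the 11 called rows 6 were among them, but a row can pass this filter through the liver arrays alone. Of these 6, only row 26 had a parental mean above 6.81 (7.01). Rows 8, 14, 21, 24 and 25 had parental means of 4.99, 5.77, 3.76, 5.98 and 4.02, so the size of their change is uncertain. The brightest row, row 5, stood at 9.45, 9.09 and 9.31 in liver arrays, against 8.83, 8.89, 9.27 and 9.27 in parental arrays, with overlapping groups and no call (0.22, SE 0.16, adjusted p = 0.657). Rows 1, 6, 17, 18 and 23 also had parental means above 6.81. They changed by 0.33, 0.88, 0.34, 0.64 and 0.54 and were not called, so the larger changes lie mostly in rows that were dim in parental cells.

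The remaining contactins did not share the rise. CNTN2, also called TAG-1, which acts in axon guidance and at the junctions of myelinated fibres, had means of 7.50, 7.49 and 7.32 in liver arrays, against 7.48, 7.22, 7.59 and 7.09 in parental arrays. Its difference was 0.09 with a 95% interval from -0.15 to 0.33, and 0 of its 23 rows were called. CNTN5, known from the auditory and olfactory systems of rodents, stood at 5.44, 5.62 and 5.57 in liver arrays, against 5.44, 5.58, 5.56 and 5.59 in parental arrays, with 0 of 25 rows called. The interval of its difference ran from -0.16 to 0.15. In both genes the groups overlapped.

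Promoter windows of 300 bases from RefSeq (GRCh38.p14), 250 before and 50 from the start of the gene, were matched for 8 of the 10 members, NCAM1 and CADM1 not among them. The windows of CNTN1, the member with the largest rise, and of MCAM are shown because they lie below and above the median window in G and C (percentiles 24.6 and 95.1) and in CG dinucleotides, the letters at which vertebrate promoters can be methylated. Capitals mark each CG, which reads the same on both strands. The first CNTN1 window lies at chr12:40827934-40828233 on the plus strand and the MCAM window at chr11:119317081-119317380 on the minus strand.
CNTN1: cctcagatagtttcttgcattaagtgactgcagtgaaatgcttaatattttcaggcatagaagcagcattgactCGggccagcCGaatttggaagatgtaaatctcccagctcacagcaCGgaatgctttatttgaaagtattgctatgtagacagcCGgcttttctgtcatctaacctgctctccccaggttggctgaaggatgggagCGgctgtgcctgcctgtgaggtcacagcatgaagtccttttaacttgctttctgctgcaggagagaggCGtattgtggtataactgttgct
MCAM: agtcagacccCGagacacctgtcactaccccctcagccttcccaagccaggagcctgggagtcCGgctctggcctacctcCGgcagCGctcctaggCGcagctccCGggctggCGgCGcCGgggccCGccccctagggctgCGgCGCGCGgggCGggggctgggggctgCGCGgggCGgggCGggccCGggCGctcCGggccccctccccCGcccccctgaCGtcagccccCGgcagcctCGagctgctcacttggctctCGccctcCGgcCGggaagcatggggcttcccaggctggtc
The CNTN1 window holds 6 CG dinucleotides and 47.0% G and C, and a second RefSeq start of CNTN1 holds 2, against a median of 14 over 35116 windows. The MCAM window holds 29. It is not the richest of the members: windows of CNTN5, NFASC and OPCML hold 30, 35 and 50, and that of OPCML lies at percentile 97.4 in G and C. Searched on both strands, the letters GGGCGG, a GC box, occur 5 times in the MCAM window and 0 times in both CNTN1 windows, and 45.0% of all windows hold them. The letters TGACGTCA, a cyclic AMP response element, occur once in the MCAM window and in 1.8% of all windows, and both motifs contain a CG. These are descriptions of the sequence, and methylation and factor binding were not measured.

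CADM1, which binds itself and other nectin-like molecules at epithelial and synaptic contacts, rose in liver derivatives. The mean of its 15 rows was 10.04, 10.10 and 10.15 in liver arrays, against 9.56, 9.63, 9.65 and 9.33 in parental arrays, so every liver array lay above every parental array. The difference was 0.56 (SE 0.10, adjusted p = 0.0049), a 1.47-fold rise. Once the array set was modelled it was 0.48 (adjusted p = 0.00697), in a fit that called 28 member rows, against 2.57% of all rows, and 3 member genes, against 8.95% of all genes. All 15 rows were higher and 2 were called. Row 3 held 11.65, 11.63 and 11.63 in liver arrays, against 10.80, 10.91, 11.01 and 10.61 in parental arrays (0.80, SE 0.13, adjusted p = 0.0118). By the median of its rows CADM1 changed by 0.41 and was not called (adjusted p = 0.113).

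CADM3, its relative of neurons and glia, stood at 7.91, 7.83 and 7.80 in liver arrays, against 7.84, 7.74, 7.87 and 7.88 in parental arrays. NFASC, which anchors sodium channel clusters at nodes and axon initial segments, stood at 7.07, 7.01 and 6.87 in liver arrays, against 6.86, 6.89, 6.85 and 6.91 in parental arrays. Liver and parental arrays overlapped in both genes, 0 of their 50 rows were called, and the 95% intervals were -0.16 to 0.18 for CADM3 and -0.06 to 0.28 for NFASC.

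MCAM, the CD146 or melanoma cell adhesion molecule of endothelium and melanoma, was at 8.32, 8.25 and 8.24 in liver arrays, against 8.49, 8.49, 8.36 and 8.01 in parental arrays. The 3 liver arrays lay inside the parental range, with an interval of the difference from -0.32 to 0.19. NTM (neurotrimin) and OPCML, neighbouring IgLON genes whose proteins act on neurite growth, and of which OPCML is known as a tumour suppressor in ovarian cancer, did not pass the test either. NTM had 7.0, 6.91 and 7.20 in liver arrays, against 6.96, 6.82, 7.05 and 6.75 in parental arrays. OPCML had 6.85, 6.87 and 6.83 in liver arrays, against 6.92, 6.71, 6.90 and 6.79 in parental arrays. Their intervals were -0.08 to 0.37 for NTM and -0.21 to 0.25 for OPCML.

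**Figure D3:**
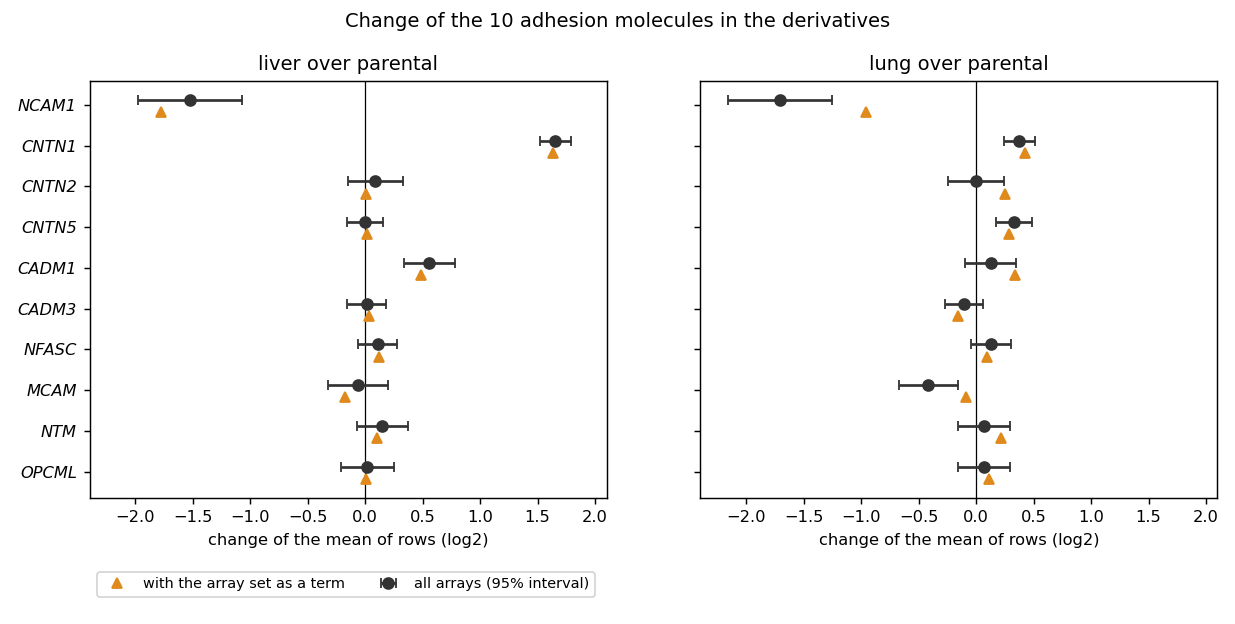
Change of the row average of each member (horizontal axis, log2) for liver over parental (left) and lung over parental (right). Black points with bars are the fit over all arrays with 95% intervals, and orange triangles are the change in the fit with the array-set term. NCAM1 is at -1.53 in liver and -1.71 in lung, CNTN1 is at 1.65 in liver and 0.38 in lung, and the triangle of NCAM1 moves to -0.96 in lung.

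Lung derivatives were compared with the same parental arrays in the same fit, so the values of both derivatives share their controls. Of the 203 member rows 32 were called, 9 higher and 23 lower. That is 15.8%, against 13.1% of all rows (5.15% higher and 7.99% lower), so the members as a whole were close to the table. NCAM1 held 16 of the 23 lower rows. By the mean of rows 4 of the 10 genes were called, 2 higher and 2 lower, against 30.1% of all genes. Once the array set was modelled 1 member row was called (0.493%, against 1.12% of all rows), and 2 of the 10 genes were called by the mean of rows, NCAM1 and CNTN1, against 5.75% of all genes.

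NCAM1 fell in lung derivatives, to 6.68, 6.64 and 6.76 in the lung arrays, against 8.61, 8.72, 8.62 and 7.65 in the parental arrays. The difference was -1.71 (SE 0.21, adjusted p = 3.11e-04), a 3.27-fold fall that ranked 7 among 4713 genes by size. Against parental array 4 alone it was smaller (-0.96, SE 0.08, adjusted p = 1.95e-04), with a spread estimated from the other arrays, so that the variation of this 1 array, which stood apart, does not enter the SE or the p-value. Against parental arrays 1 to 3 it was -1.96. All lung arrays lay below parental array 4, which itself lay 0.995 below the mean of the other parental arrays (difference -0.995).

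In lung derivatives 21 of 24 NCAM1 rows were lower and 16 were called, with changes from -3.71 to -0.72, and the 12 rows called in liver derivatives were all among these 16. Row 24 held 5.04, 4.01 and 5.58 in lung arrays, against 8.71, 8.87, 8.88 and 7.88 in parental arrays (-3.71, SE 0.36, adjusted p = 0.00113). It was the 1 member row that was also called against the single parental array 4 (-3.0), again with the spread of the other arrays. In 16 rows all lung arrays lay below all parental arrays, against 14.3% of all rows. Parental array 4 was the lowest parental array in 19 of the 24 rows, and in 14 it lay between the other parental arrays and all 6 derivative arrays.

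CNTN1 was also higher in lung derivatives, by much less than in liver. The mean of its rows was 5.82, 5.76 and 5.82 in lung arrays, against 5.42, 5.38, 5.52 and 5.37 in parental arrays. Every lung array lay above every parental array, with a difference of 0.38 (SE 0.06, adjusted p = 0.00198), a 1.30-fold rise, and of 0.43 against the single parental array 4 (adjusted p = 0.0197, with the spread taken from the other arrays). Only 17 of its 26 rows were higher and 2 were called, rows 13 and 25. Row 13 held 4.44, 4.78 and 4.12 in lung arrays, against 3.0, 3.91, 2.88 and 3.31 in parental arrays (1.17, SE 0.30, adjusted p = 0.037). All values of row 13 lie below 6.81, the 25th percentile of the table, so the size of its change is uncertain. By the median of its rows CNTN1 was not called (0.48, adjusted p = 0.117).

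CNTN5 had row means of 5.82, 5.97 and 5.82 in lung arrays, against 5.44, 5.58, 5.56 and 5.59 in parental arrays. The lung arrays lay above the parental arrays without overlap, and the difference was 0.33 (SE 0.07, adjusted p = 0.00685), a 1.26-fold rise. It was not called against parental array 4 (0.29, adjusted p = 0.131) or over its rows above the 25th percentile (0.08, adjusted p = 0.579), and 10 of its 25 rows passed that filter. Of its rows 1 was called higher and 1 lower. The lower one, row 23, held 5.57, 5.81 and 6.06 in lung arrays, against 7.0, 7.03, 7.24 and 6.28 in parental arrays (-1.07, SE 0.21, adjusted p = 0.017).

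MCAM fell in lung derivatives by the mean of its 17 rows, which was 7.86, 7.79 and 8.12 in lung arrays, against 8.49, 8.49, 8.36 and 8.01 in parental arrays. The difference was -0.42 (SE 0.12, adjusted p = 0.0234), and the highest lung array lay above parental array 4. It was -0.09 against that array (adjusted p = 0.678), and the call was lost without parental array 1 or 2 or lung array 1 or 2 (adjusted p from 0.0661 to 0.0798). The rows of MCAM differed in sign. Row 4 held 3.76, 3.92 and 5.49 in lung arrays, against 8.63, 8.28, 7.70 and 5.73 in parental arrays (-3.19, SE 0.66, adjusted p = 0.0188). The brightest row, row 17, held 11.52, 11.49 and 11.60 in lung arrays, against 10.28, 10.47, 10.62 and 11.46 in parental arrays (0.83, SE 0.24, adjusted p = 0.051). In both rows parental array 4 was nearer to the lung arrays than to the other parental arrays.

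CADM1 was not called in lung derivatives by the mean of its rows, at 9.65, 9.88 and 9.48 in lung arrays, against 9.56, 9.63, 9.65 and 9.33 in parental arrays (0.13, 95% interval -0.09 to 0.35). The other 5 members were not called by that mean either, with changes from -0.11 (CADM3) to 0.13 (NFASC). They showed 2 called rows each in CNTN2 and CADM3, 3 in NFASC, 1 in OPCML and 0 in NTM. Of the 153 rows of the 8 members other than NCAM1 and CNTN1, 9.15% were called, below the 13.1% of all rows. The called rows of CADM3 (-1.30 and -0.74) and OPCML (-0.92) were lower and those of CNTN2 higher, and NFASC had 2 higher and 1 lower. Row 3 of CNTN2 held 8.75, 9.48 and 8.75 in lung arrays, against 7.78, 7.89, 7.88 and 8.07 in parental arrays (1.09, SE 0.19, adjusted p = 0.0107), without overlap. Row 30 of NFASC held 9.06, 9.41 and 7.83 in lung arrays, against 5.84, 6.95, 6.99 and 7.92 in parental arrays (1.84, SE 0.51, adjusted p = 0.0437), and there parental array 4 lay above the lowest lung array. None of the called rows of these 5 genes was called against parental array 4.

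**Figure D4:**
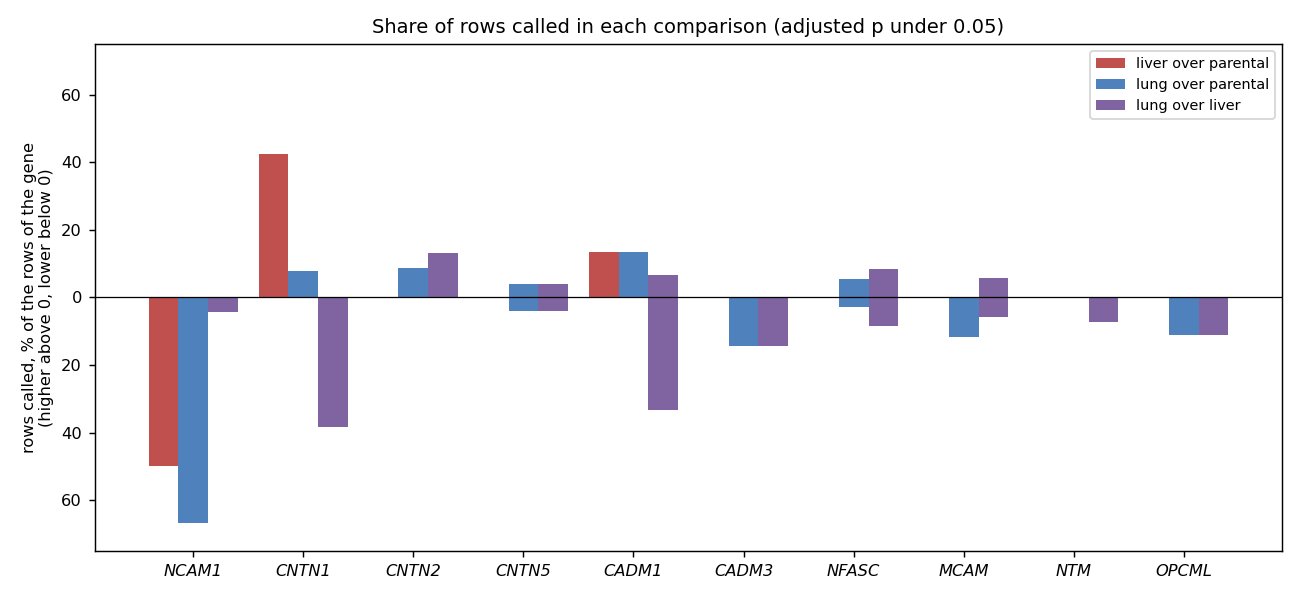
Share of the rows of each member called at an adjusted p under 0.05 (vertical axis, percent of the rows of the gene, higher calls above 0 and lower calls below 0), for liver over parental (red), lung over parental (blue) and lung over liver (purple). Called rows of NCAM1 are lower in both derivatives, and those of CNTN1 are higher in liver derivatives and lower in lung than in liver. In lung over liver CADM1 has 5 of its 15 rows called lower and 1 higher, NFASC has 3 of its 36 rows called lower and 3 higher, and the remaining members have fewer.

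The lung derivatives were then set against the liver derivatives, which tests the difference between their changes directly. Of the member rows 34 were called, 9 higher and 25 lower, which is 16.7%, against 12.6% of all rows (5.02% higher and 7.61% lower), and 3 of 10 genes were called by the mean of rows, against 19.9% of all genes. Of the 153 rows of the 8 members other than NCAM1 and CNTN1, 23 were called (15.0%), near the share of all rows. CNTN1 was lower in lung derivatives than in liver derivatives (-1.28, SE 0.07, adjusted p = 3.17e-06, a 2.43-fold difference), from values that do not overlap. All 26 of its rows had a lower mean, 17 without overlap of the groups (24.2% of all rows), and 10 were called. The array-set fit left 2 member rows called, against 0.0632% of all rows, and the 2 genes NCAM1 and CNTN1 by the row average, against 0.0849% of all genes. Row 21 held 5.40, 4.78 and 3.23 in lung arrays, against 8.69, 8.82 and 8.57 in liver arrays (-4.22, SE 0.45, adjusted p = 0.0154). By size the difference in the mean of rows ranked 7 among 4713 genes, and once the array set was modelled it was -1.21 (adjusted p = 0.00236).

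CADM1 was lower in lung than in liver, at 9.65, 9.88 and 9.48 in lung arrays, against 10.04, 10.10 and 10.15 in liver arrays (-0.43, SE 0.11, adjusted p = 0.0242). The groups did not overlap, and 5 of its rows were called lower and 1 higher. CNTN5 was higher in lung than in liver, at 5.82, 5.97 and 5.82 in lung arrays, against 5.44, 5.62 and 5.57 in liver arrays (0.33, SE 0.07, adjusted p = 0.017). Neither was called once the array set was modelled (-0.14, adjusted p = 0.789, and 0.27, adjusted p = 0.523), and both calls were lost when any 1 liver array was left out (adjusted p from 0.0534 to 0.0813 for CADM1 and from 0.0544 to 0.0566 for CNTN5). The CADM1 call was also lost without lung array 1 (adjusted p = 0.0722) or lung array 3 (adjusted p = 0.0615).

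NCAM1 did not pass the test between the derivatives (-0.18, 95% interval -0.66 to 0.31, adjusted p = 0.579), although each of the 3 lung arrays lay slightly below each liver array. The outcome of this test depends on parental array 4, which adds to the shared spread: without it the same difference was called (adjusted p = 0.039). Once the array set was modelled the difference itself turned to 0.82, since each derivative is then set against a different part of the parental arrays. The order of NCAM1 between the derivatives is therefore not settled by these arrays. MCAM differed by -0.35 (95% interval -0.63 to -0.07, adjusted p = 0.0683). The other members lay between -0.12 (CADM3) and 0.05 (OPCML).

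Ordered by the mean of rows, NCAM1 ran from parental cells at the top to liver and then lung derivatives, and the derivatives were not told apart in the test over all arrays. CNTN1 ran from liver derivatives to lung derivatives to parental cells, and each step passed the test. CADM1 was highest in liver derivatives, and lung derivatives and parental cells were not told apart by the test. MCAM had its lowest mean in lung derivatives, which passed the test against parental cells over all arrays but not against parental array 4 alone. Lung and liver derivatives were not told apart by the test in MCAM, and neither were liver derivatives and parental cells.

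Genes next to these members on the chromosome were looked at after the values of the members were seen. Over all genes 7.83% were called in liver derivatives, 30.1% in lung derivatives and 19.9% in lung over liver. For each of the members NCAM1, CNTN1, CADM1, MCAM and CNTN5 the 3 nearest measured genes on either side were taken, and in liver derivatives 0 of 6 were called next to each of them except MCAM, where USP2 was higher (0.42). Around NCAM1, which lies between the genes LOC100132686 and TTC12, their changes in liver derivatives ran from -0.07 to 0.46, and around CNTN1, between MUC19 and PDZRN4, from -0.39 to 0.08. In lung derivatives LOC100132686 was called higher (0.38) and YAF2 near CNTN1 (-0.32) and BUD13 near CADM1 (-0.28) lower, and next to MCAM USP2 (0.35) and DRC12 (0.37) were higher. In lung over liver 0 of the 6 neighbours of NCAM1 were called, and 2 of the 6 of CNTN1 were higher, SLC2A13 (0.38) and PDZRN4 (0.41), where CNTN1 itself was lower. Next to CADM1 BUD13 (-0.28) was lower in lung than in liver, and 0 of 6 were called next to MCAM and to CNTN5.

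By the mean of rows over the 10 arrays, the genes with at least 4 rows most like NCAM1 were the synaptic scaffold SHANK2 (Pearson r 0.994), DENND5B (0.985) and ARHGEF10L (0.981). They changed by -0.75, -0.94 and -0.67 in liver derivatives and by -0.86, -1.07 and -0.60 in lung derivatives. Most like CNTN1 were the transcriptional co-regulator RERE (0.984), the dynamin DNM3 (0.966) and the ETS factor FLI1 (0.955). RERE, DNM3 and FLI1 changed by 0.42, 0.95 and 1.43 in liver derivatives and by 0.06, 0.34 and 0.66 in lung derivatives. CADM1 was most like HSPA14 (0.97), the sodium pump subunit ATP1B1 (0.951) and TAF3 (0.951), MCAM like NENF (0.984), UAP1 (0.976) and PEX5 (0.975), and CNTN5 like KCNJ1 (0.96), PLA2G12B (0.926) and DNAI4 (0.926). These likenesses are over the same 10 arrays out of 3930 other genes, share the group structure of the samples and are descriptions only. Among the members themselves the closest pair was CNTN1 and CADM1 (r = 0.889 over the same arrays).

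Of 24 other measured adhesion molecules of the immunoglobulin family, 3 were higher and 1 lower in liver derivatives by the mean of rows, against 7.83% of all genes called, and the median change was 0.02, against 0.01 for all genes. MPZL2, an epithelial adhesion protein, rose by 0.67 (SE 0.10, adjusted p = 9.35e-04), IGSF8 by 0.38 and IGSF9 by 0.32, while KIRREL1, of the kidney slit diaphragm family, fell by 0.37. In lung derivatives 7 were higher and 3 lower, with a median of 0.11, against -0.01 for all genes and 30.1% called. There MPZL2 (0.66), IGSF3 (0.42) and MPZL3 (0.46) rose and the junction protein NECTIN1 (-0.60) fell. Once the array set was modelled 3 were higher and 0 lower, among them IGSF3 (0.47). Between lung and liver derivatives IGSF3 (0.50, SE 0.07, adjusted p = 0.00573) and HEPACAM (0.47), a glial adhesion protein, were higher in lung, and 0 of the 24 were called once the array set was modelled.

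Of 15 genes listed for partners of the members, 1 was higher and 1 lower in liver derivatives, against 7.83% of all genes called. NOTCH2, a receptor of the family that contactin 1 can bind, rose by 1.15 (SE 0.07, adjusted p = 1.78e-06, 17 of 33 rows called higher), and EPB41, a cytoskeletal linker of the protein 4.1 family that binds CADM proteins, fell by 0.30. In lung derivatives 5 were higher and 3 lower, against 30.1% of all genes called, and 2 were higher and 0 lower once the array set was modelled. The 4 with the smallest adjusted p over all arrays were NOTCH2 (0.62, SE 0.07), EPB41 (-0.38), the polarity protein PARD3 (-0.32) and ST8SIA1 (0.43). ST8SIA1 is a sialyltransferase of gangliosides and is counted in this list although it is not a binding partner. Between lung and liver derivatives 2 of the 15 were higher and 4 lower in lung, against 19.9% of all genes called. NOTCH2 (-0.53, SE 0.07, adjusted p = 0.00613), the neurexin NRXN2 (-0.38) and APLP2 (-0.29) were lower there and GFRA1, a receptor of GDNF family ligands, was higher (0.49). Once the array set was modelled, 0 of the 15 were called between the derivatives.

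Markers of other cell types that make these molecules were counted in the same way, and their part in the changes was not tested. The share of all genes called, 7.83% in liver and 30.1% in lung derivatives, is the background of each list. Of 13 neuronal and neuroendocrine genes 1 was higher and 1 lower in liver derivatives, TH (0.55) and GRIN2B (-1.38). In lung derivatives 1 was higher and 2 were lower, TH (0.80), GRIN2B (-1.19) and SYT1 (-0.24). In the array-set fit TH, GRIN2B and SYT1 changed by 0.70, -0.93 and -0.28 in lung derivatives, and SYT1 was not called. The mean level of the list ran from 8.07 to 8.11 in liver arrays, from 8.11 to 8.13 in lung arrays and from 8.15 to 8.19 in parental arrays. Of 12 NK and T cell genes, a list chosen because NCAM1 marks natural killer cells, 2 were higher and 0 lower in liver derivatives (CD5, 1.70, and CD6, 0.47) and 5 higher in lung derivatives, against 30.1% of all genes called, or 3 in the array-set fit. That list ran from 6.31 to 6.34 in liver arrays, from 6.45 to 6.55 in lung arrays and from 6.07 to 6.21 in parental arrays. Of 6 endothelial genes, chosen beside MCAM, 0 were called in liver derivatives and SELE (0.29) was higher in lung derivatives. In the array-set fit SELE changed by 0.25 in lung derivatives and was not called. The mean level of the endothelial list ran from 6.90 to 7.06 in liver, 7.03 to 7.05 in lung and 6.90 to 7.0 in parental arrays.

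Of 7 stromal genes 0 were higher and 1 lower in liver derivatives (LUM, -1.97), and 3 were higher and 1 lower in lung derivatives, against 30.1% of all genes called, or 0 higher and 1 lower in the array-set fit. Their mean level ran from 6.66 to 6.70, 6.84 to 7.12 and 6.79 to 7.0 in liver, lung and parental arrays. Of 2 melanocyte genes PMEL (0.22) was called, in lung derivatives, but not in the array-set fit (0.17). The 1 glial gene measured, KCNJ10, was not called. Of the 12 colon epithelium genes 5 were lower and 0 higher in each derivative, against 7.83% of all genes called in liver and 30.1% in lung. The smallest adjusted p was that of TSPAN8 (-1.12) and EPHB2 (-0.57) in liver and of LGR5 (-1.27) and CD44 (-1.17) in lung. In the array-set fit the 5 genes changed in lung derivatives by -1.11 (LGR5), -1.24 (CD44), -0.40 (ELF3), -0.58 (TSPAN8) and -0.38 (EPHB2). TSPAN8 and EPHB2 were not called in that fit. In these cultures a lower level can mean fewer cells that make a gene or less RNA per cell, which cannot be told apart here.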

How the data were processed

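The deposited values are log2 expression values of 10 arrays (Affymetrix HG1.0ST, per the labels), made by the authors with RMA through oligo, an R package named in the submitters' processing notes; versions, summary level and genome build are not given in the sources used here. RMA places all arrays on a common distribution, so a change in total RNA content cannot be seen. The table has 65535 rows, of which 54806 list 1 gene. Nearly all genes (4660 of 4713) lie on chromosomes 1, 10, 11 and 12, and family members without a row in the table were not analysed here.

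Rows and means of all rows of a gene were fitted with limma 3.58.1 (R 4.3.3), 1 coefficient per group over all 10 arrays, no covariate, eBayes, two-sided, with Benjamini-Hochberg adjustment over all rows or genes of a contrast, and calls at an adjusted p under 0.05. The fit was tested on simulated data. A fold is 2 to the power of a difference of mean log2 values. All 10 members are named; rows shown are the called row with the largest change in a comparison, and row 19 of NCAM1, rows 5 and 25 of CNTN1 and row 17 of MCAM were added after their values were seen. Up to 4 called genes are named per list. The members and lists were chosen with earlier results of these data known. Alternatives were the array set or replicate number as a term, quantile normalization, median centring, a filter at the 25th percentile, all rows tested, a trend and robust prior, only the 2 groups compared, the median of rows, the brightest row, and leaving out each array. The number of arrays limits the precision.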

Additional observations from a re-analysis of the deposited data

Results flagged for a closer look

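The mean of the NCAM1 rows was 7.65 in parental array 4 and 8.61 to 8.72 in the other parental arrays, a gap of 0.89 of the range of the group, above Dixon's 95% critical value for 4 samples. Chance flags about 1 in 20 such groups, and 10 were tested. The changes of liver and lung derivatives against parental cells differed by the test of the difference itself in CNTN1 (-1.28 in lung over liver), CNTN5 (0.33) and CADM1 (-0.43). Of these 3, CNTN1 was also called with the array set as a term.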

How the results depend on the processing

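In liver over parental, the 25 called member rows (1252 of all rows) became 8 to 28 (527 to 1464) when 1 array was left out. In lung over parental, the 32 (7483) became 14 to 58 (2519 to 16222), 1 (635) with the array set and 13 (2120) with only both groups fitted. In lung over liver, the 34 (7194) became 0 to 54 (0 to 14167), 0 without liver array 2 or 3 and 54 without parental array 4, and 2 (36) with the array set. Genes called by the row average stayed at 3 in liver without any 1 array and were 1 by the brightest row; in lung they ranged from 3 to 4, with 2 under the array set and 1 by the median of rows; in lung over liver from 1 to 5, with 1 by the median. By the brightest row CNTN1 was called in no comparison (liver 0.22, adjusted p = 0.571) and NCAM1 not in liver (-0.76, adjusted p = 0.0652). The cause of these changes was not tested.

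Replicate numbers did not pair the samples (correlations of the deviations of same-numbered arrays from -0.12 to 0.0441). The replicate block gave 786 called rows in liver and 12420 in lung, with 53 member rows in lung.

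The sign turned in these small changes. In liver over parental it did for CADM3 (-0.0103 over bright rows, -0.163 by the median), CNTN2 (-0.217, brightest row), CNTN5 (0.0121 with the array set and with the replicate block, 0.000227 centred, 0.0118 median) and OPCML (-0.0394 bright rows, -0.195 median). In lung over parental it did for CADM3 (0.072, bright rows), CNTN2 (0.253 array set, 0.00927 quantile, 0.0406 centred, 0.00737 bright rows, 0.962 brightest), MCAM (0.827, brightest), NTM (-0.0827 median, -0.395 brightest) and OPCML (-0.338, median). In lung over liver it did for CADM3 (0.0824 bright rows, 0.158 median), CNTN2 (0.25 array set, 1.18 brightest), MCAM (0.0843 array set, 1.05 brightest), NCAM1 (0.815 array set, 0.0418 brightest), NFASC (-0.0245, array set), NTM (0.116, array set) and OPCML (-0.143, median). Leaving out 1 array spanned 0 for CADM3 (-0.0200 to 0.0374), CNTN5 (-0.0402 to 0.0472) and OPCML (-0.0225 to 0.0496) in liver, for CNTN2 (-0.0872 to 0.0799), NTM (-0.00339 to 0.158) and OPCML (-0.0427 to 0.206) in lung, and for NFASC (-0.0524 to 0.0933), NTM (-0.152 to 0.00922) and OPCML (-0.0610 to 0.187) in lung over liver.

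Dim rows limit CNTN1 and CNTN5 most, with 13 of 26 and 10 of 25 rows above the 25th percentile of all values in the mean of any group. No detection p-values were used.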
